A study of Mus musculus with 2 samples.

Results

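Granulosa cells are the somatic cells that enclose the growing oocyte. They respond to follicle-stimulating hormone from the pituitary, make oestrogen, and secrete the hormones inhibin, activin and anti-Müllerian hormone. Inhibin is a dimer of an alpha and a beta subunit and lowers pituitary secretion of follicle-stimulating hormone, whereas activin is a dimer of beta subunits alone and raises it. The transcription factor FOXL2 keeps granulosa cells female in character. Their transcripts in a library made from oocytes give a view of somatic cells attached to the oocyte, although oocytes may transcribe some of these genes too.

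The 10 genes described here were chosen by name as hormone and identity genes of granulosa cells: *Inha*, *Inhba*, *Inhbb*, *Amh*, *Fshr*, *Esr2*, *Foxl2*, *Serpine2*, *Gatm* and *Gata6*. All 10 were among the 18467 genes of the table. The values come from total RNA of oocytes of C57BL/6 mice aged 2 weeks. There was 1 library labelled Kat8 Gdf9 cKO (Gdf9-Cre;Kat8 fl/fl), called cKO here, in which both *Kat8* alleles are flanked by loxP sites and the Cre recombinase is driven by the *Gdf9* promoter, and 1 library labelled wild type (WT). The *Gdf9* promoter acts in oocytes, so granulosa cells are not the target of this Cre. The sources used here do not give the numbers of oocytes or animals, how somatic cells were removed, or whether WT mice carried loxP-flanked alleles or Cre. *Kat8*, the gene of a histone H4 acetyltransferase, stood at 0.985 FPKM in the cKO library and 166 FPKM in the WT library, which fits the labels.

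FPKM are fragment counts divided by transcript length and by library size, so levels of different genes can be set side by side. The FPKM columns summed to 562823 in the cKO library and 666635 in the WT library, and the number of fragments behind them is unknown. Among 3503 genes with low values in both libraries, the most frequent ratio of cKO to WT FPKM was 1.24. If that is the ratio of 1 fragment to 1 fragment, low values are coarser in the cKO library. Differences are given as the log2 ratio of cKO over WT on the log2(FPKM + 0.1) scale, which understates the change of low genes. A gene was called higher or lower by a rule of size: at least 1 FPKM in either library and a log2 ratio of at least 1 or at most -1. With 1 library per genotype the differences have no replicate check and no test, and genotype and library cannot be told apart.

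The defining transcripts of the oocyte were present in both libraries, and the summed level of the granulosa genes was far below theirs. The 12 oocyte markers ranged between 47.4 and 7658 FPKM in the cKO library and between 51.1 and 10371 FPKM in the WT library, and their sums were 25501 and 25528 FPKM in the cKO and WT libraries. Single markers differed in both directions: *Padi6* stood at 4638 FPKM in the cKO library and 1847 FPKM in the WT library, and *Dppa3* at 4524 FPKM in the cKO library and 10371 FPKM in the WT library, and the other 10 were neither higher nor lower by the rule of size given above. The 10 granulosa genes summed to 413 FPKM in the cKO library and 373 FPKM in the WT library, a difference carried in level mainly by *Serpine2*. Without *Serpine2* the sums were 132 FPKM in the cKO library and 122 FPKM in the WT library. Single genes overlapped in level, as *Serpine2* and *Inha* stood above *Kit*, the lowest of the oocyte markers, in both libraries. In such bulk RNA, a change in the number of attached cells and a change in RNA per cell cannot be told apart.

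Within the granulosa set the 3 most abundant genes were each within 2-fold between the libraries, and the genes called higher were all among the less abundant ones. *Inhba*, *Gatm*, *Gata6* and *Foxl2* were called higher, no member was called lower, and 5 of the 9 members at 1 FPKM or more were neither. By the same rule 18.2% of all genes at 1 FPKM or more were higher and 12.2% were lower. *Fshr* and *Gatm* reached 1 FPKM in the cKO library alone, so their place among the 9 rests on the library in which they were higher. Of the 7 members at 1 FPKM or more in both libraries, 3 were called higher. Low genes were called higher more often in general: 22.2% of the genes that stayed under 20 FPKM in both libraries were higher and 12.1% lower, against 11.1% higher and 12.4% lower among those at 20 FPKM or more. The granulosa genes under 20 FPKM that reached the floor numbered 6, of which 4 were higher and *Inhbb* and *Fshr* were not, whereas 0 of the 3 at 20 FPKM or more were. That split at 20 FPKM was chosen after the values were seen. The median log2 ratio over the 9 members at the floor was 0.97, beside 0.06 over all genes at the floor. That 0.97 is the value of *Fshr*, and *Fshr* and *Gatm* are among the 9 through the cKO library alone. With a floor of 5 FPKM the median of the members was 0.25. Over all 10 members, with no floor, the median was 0.65, beside 0.12 over all genes.

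**Figure D1:**
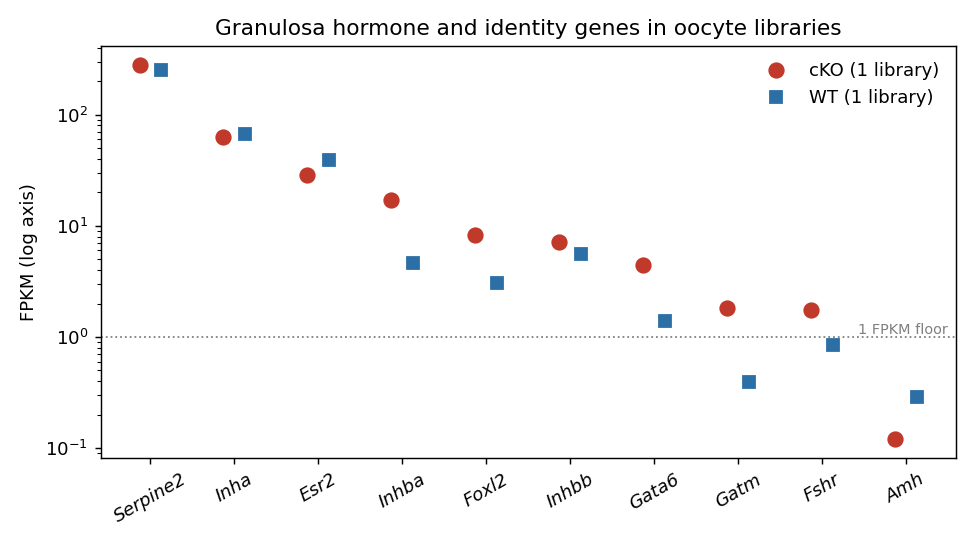
FPKM of the 10 granulosa genes on a log axis, ordered by the level in the cKO library, with 1 red circle for the cKO library and 1 blue square for the WT library per gene. *Serpine2*, *Inha* and *Esr2* lie at similar heights in both libraries, whereas *Inhba*, *Foxl2*, *Gata6* and *Gatm* are separated by a factor between 2.70 and 4.66, and *Amh* is under 1 FPKM in both.

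The hormone subunit genes parted from each other. *Inha* (chr1:75507076-75510354, plus strand, mm10) encodes the alpha subunit that makes a dimer an inhibin. It stood at 62.7 FPKM in the cKO library and 67.3 FPKM in the WT library, a log2 ratio of -0.10 as deposited. The log2 ratio was 0.14 with FPKM rescaled to equal totals and -0.47 with the trend on transcript length and GC content removed. *Inha* was the second most abundant of the 10 genes in both libraries, at rank 1553 of all genes in the cKO and 1523 in the WT library.

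*Inhba* (chr13:16014474-16027211, plus strand) encodes the beta A subunit of activin A and inhibin A. It stood at 17.2 FPKM in the cKO library and 4.62 FPKM in the WT library, 3.71-fold higher (log2 ratio 1.87). Its rank among all genes was 4198 in the cKO library and 7375 in the WT library. It was the only 1 of the 10 genes on the list of 500 genes that the authors' deposited table gives as higher in the knockout, a list that holds 2.71% of all genes, and 0 were on their list of lower genes, which holds 1.94%. Of the subunit genes, *Inhba* was the 1 with a large difference.

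*Inhbb* (chr1:119415464-119422248, minus strand) encodes the beta B subunit. It stood at 7.08 FPKM in the cKO library and 5.59 FPKM in the WT library, a log2 ratio of 0.34. With the trend on transcript length and GC content removed its log2 ratio was -0.67, so its direction is not settled by these values. The order of the beta subunit genes differed between the libraries: *Inhba* FPKM were 2.43 times *Inhbb* FPKM in the cKO library and 0.828 times in the WT library.

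In the FPKM as deposited the alpha transcript was close to level and the beta A transcript was not, so the balance of subunit transcripts differed. *Inha* FPKM were 3.65 times *Inhba* FPKM in the cKO library and 14.6 times in the WT library. Against the sum of both beta subunit genes, which was 24.2 FPKM in the cKO library and 10.2 FPKM in the WT library, the ratio was 2.59 in the cKO library and 6.59 in the WT library. These are ratios of transcripts, and no protein was measured.

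*Amh* (chr10:80805247-80807648, plus strand) encodes anti-Müllerian hormone, a product of granulosa cells of growing follicles that restrains recruitment of further follicles. It was close to the lower limit of the data, at 0.121 FPKM in the cKO library and 0.288 FPKM in the WT library. It was the least abundant of the 10 genes in both libraries and the only 1 under 1 FPKM in both. A hormone transcript that marks granulosa cells at this age was therefore near 0 where *Inha* was above 60 FPKM. The splicing factor gene *Sf3a2* ends 324 bases from *Amh* and stood at 10.6 FPKM in the cKO library and 5.78 FPKM in the WT library.

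The receptor genes had ratios on either side of 0. *Fshr* (chr17:88984951-89200675, minus strand) encodes the receptor for follicle-stimulating hormone, which in the ovary is found on granulosa cells. It stood at 1.75 FPKM in the cKO library and 0.849 FPKM in the WT library, a ratio of 2.07 as FPKM. Its log2 ratio of 0.97 was just under the rule of size. The log2 ratio was above 1 with a pseudocount of 0.01 (1.04), with FPKM rescaled to equal totals (1.20), with scaling without the 50 most abundant genes (1.15) and with the length and GC trend removed (1.08).

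*Esr2* (chr12:76120418-76177259, minus strand) encodes oestrogen receptor beta, the main oestrogen receptor of granulosa cells. It stood at 28.4 FPKM in the cKO library and 38.9 FPKM in the WT library, a log2 ratio of -0.45. It was the member at 1 FPKM or more with the lowest ratio, and it was the third most abundant of the 10 genes in both libraries. *Esr1*, which encodes oestrogen receptor alpha, stood at 6.01 FPKM in the cKO library and 7.01 FPKM in the WT library. It was named after its values were seen.

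The forkhead and GATA factor genes were both called higher, whereas *Esr2*, which encodes a hormone-dependent transcription factor, was not. *Foxl2* (chr9:98955606-98958126, plus strand) is a forkhead gene needed to keep granulosa identity in the mouse ovary. It stood at 8.34 FPKM in the cKO library and 3.08 FPKM in the WT library, 2.70-fold higher (log2 ratio 1.41). With the trend on transcript length and GC content removed the log2 ratio was 0.52 and the call ended. The neighbouring gene *Foxl2os*, transcribed from the opposite strand, stood at 2.11 FPKM in the cKO library and 0.576 FPKM in the WT library, a log2 ratio of 1.71. Its deposited locus ends at 98955310, which lies 295 bases before that of *Foxl2* but inside the gene as annotated in GENCODE M21, which starts at 98955288. The sources used here do not say whether counting used strand, so reads shared by the overlapping stretch could belong to either gene.

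*Gata6* (chromosome 18, 11052509 to 11085635, plus strand) encodes a zinc finger factor that acts with GATA4 in granulosa cells of the mouse. It stood at 4.45 FPKM in the cKO library and 1.38 FPKM in the WT library, 3.23-fold higher (log2 ratio 1.62). *Gata4* stood at 9.52 FPKM in the cKO library and 8.99 FPKM in the WT library, with a log2 ratio of 0.08. The GATA genes therefore differed from each other in these libraries, with *Gata6* below *Gata4* in both. *Gata4* was named after its values were seen.

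The last pair of members encode a secreted inhibitor and a metabolic enzyme. *Serpine2* (chr1:79794320-79858665, minus strand) encodes protease nexin 1, an inhibitor of thrombin, urokinase and plasmin. It was the most abundant member by far, at 281 FPKM in the cKO library and 251 FPKM in the WT library, a log2 ratio of 0.17. It made up 68.1% of the summed FPKM of the 10 genes in the cKO library and 67.2% in the WT library.

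*Gatm* (chr2:122594472-122611277, minus strand) encodes glycine amidinotransferase, the enzyme of the first step of creatine synthesis. It stood at 1.83 FPKM in the cKO library and 0.393 FPKM in the WT library, 4.66-fold higher as FPKM. Its log2 ratio of 1.97 was the highest of the 10, and it was 1.02 with a pseudocount of 1. *Gatm* and *Fshr* stood at nearly the same level in the cKO library, whereas in the WT library *Fshr* FPKM were 2.16 times *Gatm* FPKM.

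The p-values and FDR of the authors' deposited table do not measure replicate spread. For every 1 of the 998 pairs of FPKM values, rounded up to whole numbers, that 2 or more genes shared (15903 genes), the genes carried the same p-value, so for these genes it follows from the rounded FPKM alone. The authors' deposited table gives *Serpine2*, with a fold of 1.12, an FDR of 0.0171, and *Inhba*, with a fold of 3.71, an FDR of 0.0350. It gives *Foxl2* an FDR of 0.607 and each of the other 7 genes an FDR of 1.

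**Figure D2:**
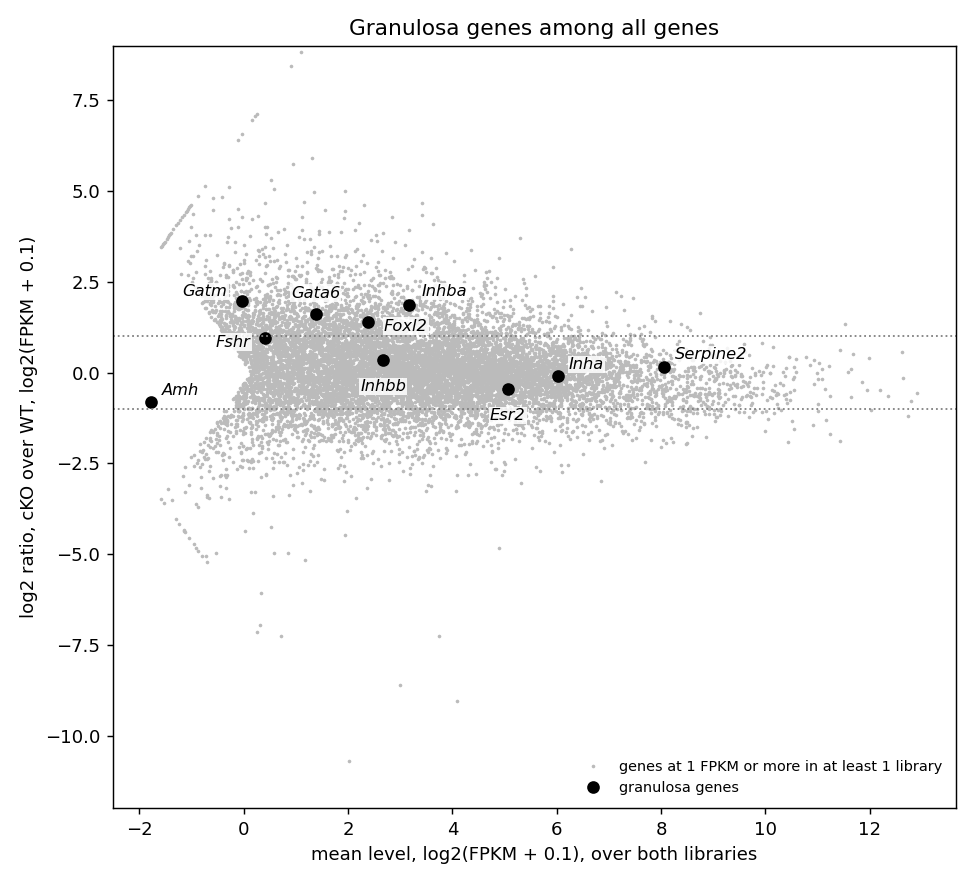
Log2 ratio of cKO over WT against the mean log2(FPKM + 0.1) of both libraries, with 1 grey point per gene that reached 1 FPKM in at least 1 library, black points for the 10 granulosa genes, and dotted lines at log2 ratios of 1 and -1. The grey cloud widens toward low levels, *Serpine2*, *Inha* and *Esr2* lie near 0 at the abundant end, and *Gatm*, *Inhba*, *Gata6* and *Foxl2* lie above the upper line.

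The bases upstream of the transcription start are shown for *Inhba* and *Gatm*, which were called higher, and for the receptor genes *Fshr* and *Esr2*, which were not. Each line holds the 250 bases before the start of the RefSeq annotation on GRCm38.p6, the assembly of mm10, read 5′ to 3′ on the strand of the gene. Capitals mark the motifs searched for on both strands. These were the E-box CACGTG, the GATA motif GATAA, the TATA box TATAAA, the cAMP response element TGACGTCA, the nuclear receptor half-site AGGTCA and the forkhead motif GTAAACA, and no marked matches overlap each other.
Inhba (chr13:16011601-16011850, plus strand): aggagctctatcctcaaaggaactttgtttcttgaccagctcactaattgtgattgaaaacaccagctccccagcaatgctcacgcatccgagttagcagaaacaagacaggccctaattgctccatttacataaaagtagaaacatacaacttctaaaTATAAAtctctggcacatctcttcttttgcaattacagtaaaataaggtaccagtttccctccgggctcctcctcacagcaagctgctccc
Gatm (chr2:122611278-122611527, minus strand): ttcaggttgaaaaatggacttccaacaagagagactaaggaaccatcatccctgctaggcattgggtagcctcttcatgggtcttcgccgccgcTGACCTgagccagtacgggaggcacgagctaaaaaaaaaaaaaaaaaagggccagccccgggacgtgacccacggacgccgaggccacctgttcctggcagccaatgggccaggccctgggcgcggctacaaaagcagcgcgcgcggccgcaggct
Fshr (chr17:89200676-89200925, minus strand): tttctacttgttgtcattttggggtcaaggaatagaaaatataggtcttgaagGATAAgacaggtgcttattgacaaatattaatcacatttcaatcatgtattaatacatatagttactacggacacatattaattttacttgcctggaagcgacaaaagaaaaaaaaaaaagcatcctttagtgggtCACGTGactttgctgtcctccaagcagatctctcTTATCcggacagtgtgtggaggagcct
Esr2 (chr12:76177260-76177509, minus strand): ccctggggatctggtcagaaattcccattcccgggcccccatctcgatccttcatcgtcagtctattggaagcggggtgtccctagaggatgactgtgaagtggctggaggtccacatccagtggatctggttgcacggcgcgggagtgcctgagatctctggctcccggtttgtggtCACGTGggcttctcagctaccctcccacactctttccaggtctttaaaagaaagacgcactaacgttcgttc

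The receptor gene windows shared an E-box, at bases -61 to -56 from the start in *Fshr* and -72 to -67 in *Esr2*. An E-box was in 6.02% of all 32851 windows of the same length. In the *Fshr* promoter the E-box is a known binding site of USF factors in rodents. *Fshr* also held GATAA at -197 to -193 and its complement at -27 to -23, a motif in 22.6% of all windows. *Inhba* held a TATA box at -91 to -86 (12.4% of windows), and *Gatm* held the complement of the half-site at -156 to -151 (14.0%). The cAMP response element (1.55% of windows) and the forkhead motif (3.17%) were in none of these 4 windows.

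*Inhba* and *Gatm* did not share a base composition. The GC content was 43.2% in the *Inhba* window and 59.2% in the *Gatm* window, with 3 and 17 CpG dinucleotides, beside medians of 52.4% and 6 over all windows. In *Fshr* and *Esr2* it was 36.8% and 56.4%, and in *Inhbb* 68.0%. The *Inhba* window lies before a start that is 2623 bases upstream of the deposited locus. The last bases of the *Gatm* window lie within the gene as GENCODE M21 gives it. The RefSeq windows of *Inha*, *Foxl2* and *Serpine2*, which lie inside the GENCODE M21 genes, are not shown. *Amh* and *Gata6* are named only.

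Of the 20 genes nearest to a member on either side, 15 reached 1 FPKM in a library. Of these, 2 were higher and 0 lower, beside the 18.2% and 12.2% of all genes at 1 FPKM or more. These were *Foxl2os* and *Ralb*, a small GTPase gene 48055 bases from *Inhbb*. *Ralb* stood at 1.23 FPKM in the cKO library and 0.485 FPKM in the WT library. *Foxl2os* and *Ralb* reached 1 FPKM in the cKO library alone, so their place among the 15 rests on the library in which they were higher.

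Other genes of the activin, inhibin and AMH pathway were described from a list of ligands, antagonists, receptors, SMAD proteins and processing enzymes. Of 28 genes, 27 were in the table and 19 reached 1 FPKM. Of these 6 were higher and 0 lower, beside the 18.2% and 12.2% of all genes. The median log2 ratio was 0.81 over the 19 and 0.64 over all 27. *Acvr1b*, *Acvr2a* and *Bambi* reached 1 FPKM in the cKO library alone, so their place among the 19 rests on the library in which they were higher. *Acvr1b* and *Acvr2a* were named after their values were seen. The activin receptor gene *Acvr2b* stood at 51.1 FPKM in the cKO library and 17.5 FPKM in the WT library, 2.93-fold higher. *Tgfbr3*, which encodes betaglycan, the co-receptor through which inhibin opposes activin, stood at 13.5 FPKM in the cKO library and 5.07 FPKM in the WT library, 2.67-fold higher. Both encode receptors for the products of the subunit genes above. They were named because they passed the rule of size, and 0 genes of this list were lower, so their direction adds no information. Of the 27 genes, 22 were above WT in the cKO library.

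The remaining higher genes of the pathway encode a decoy receptor, SMAD proteins and a processing enzyme. *Bambi*, the decoy receptor gene, stood at 2.96 FPKM in the cKO library and 0.433 FPKM in the WT library. It reached 1 FPKM in the cKO library alone. *Smad5* stood at 7.18 FPKM in the cKO library and 2.05 FPKM in the WT library, and *Smad1* at 12.2 FPKM in the cKO library and 5.85 FPKM in the WT library. Both encode SMAD proteins that relay BMP and AMH signals. The proprotein convertase gene *Pcsk6* stood at 5.82 FPKM in the cKO library and 2.78 FPKM in the WT library. *Smad1* and *Pcsk6* were just past the rule, at log2 ratios of 1.04 for each. The convertase gene *Furin*, at 45.5 FPKM in the cKO library and 30.8 FPKM in the WT library, was short of it. The AMH receptor gene *Amhr2*, named after its values were seen, stood at 5.18 FPKM in the cKO library and 2.90 FPKM in the WT library, a log2 ratio of 0.81. Its ligand gene *Amh* was under 1 FPKM in both.

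Downstream of the gonadotropin receptors, 5 of the 14 genes at 1 FPKM or more were higher and 0 lower, beside 18.2% and 12.2% of all genes, with a median log2 ratio of 0.39. The adenylate cyclase gene *Adcy6* stood at 5.91 FPKM in the cKO library and 0.428 FPKM in the WT library. The transcription factor gene *Creb1*, which responds to cAMP, stood at 2.95 FPKM in the cKO library and 0.411 FPKM in the WT library. *Adcy6* and *Creb1* reached 1 FPKM in the cKO library alone, so their place among the 14 rests on that library. *Sgk1*, a kinase gene induced by follicle-stimulating hormone in granulosa cells, stood at 14.99 FPKM in the cKO library and 3.51 FPKM in the WT library. The cyclin gene *Ccnd2* stood at 5.81 FPKM in the cKO library and 2.39 FPKM in the WT library, and the anchoring protein gene *Akap13* at 9.15 FPKM in the cKO library and 4.18 FPKM in the WT library. *Gnas*, the gene of the stimulatory G protein, was level, at 319.7 FPKM in the cKO library and 342 FPKM in the WT library. The luteinizing hormone receptor gene *Lhcgr*, the nearest neighbour of *Fshr*, stood at 0.0890 FPKM in the cKO library and was listed at 0 in the WT library. Many genes of this list act in oocytes as well.

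Other genes of granulosa identity and function also went both ways. Of 24 listed, 20 reached 1 FPKM, 9 were higher and 1 was lower, beside 18.2% and 12.2% of all genes, with a median log2 ratio of 0.82 that was 0.08 with a floor of 5 FPKM. *Amhr2*, *Fst* and *Ccnd2* also stand in a list above. *Nr5a2*, a nuclear receptor gene of granulosa cells, stood at 16.8 FPKM in the cKO library and 6.10 FPKM in the WT library. The transcription factor gene *Wt1* stood at 4.26 FPKM in the cKO library and 1.36 FPKM in the WT library, and *Kitl*, the KIT ligand that granulosa cells present to the oocyte, at 3.44 FPKM in the cKO library and 1.07 FPKM in the WT library. *Cyp11a1*, the side-chain cleavage enzyme of steroid synthesis, stood at 2.77 FPKM in the cKO library and 0.317 FPKM in the WT library. The keratin gene *Krt18* stood at 3.67 FPKM in the cKO library and 0.668 FPKM in the WT library. The cell cycle inhibitor gene *Cdkn1b* stood at 9.30 FPKM in the cKO library and 3.12 FPKM in the WT library. Of the genes named here, *Cyp11a1* and *Krt18* reached 1 FPKM in the cKO library alone.

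The genes of this list that were not higher included products of oestrogen synthesis and cell contact. *Bex4* was the 1 lower gene, at 2.11 FPKM in the cKO library and 10.5 FPKM in the WT library. *Gja1*, the main gap junction gene of granulosa cells, stood at 9.98 FPKM in the cKO library and 14.9 FPKM in the WT library, a log2 ratio of -0.58. Aromatase, *Cyp19a1*, stood at 5.49 FPKM in the cKO library and 6.70 FPKM in the WT library, and *Hsd17b1* at 3.53 FPKM in the cKO library and 6.48 FPKM in the WT library. These oestrogen synthesis genes, named after their values were seen, had log2 ratios of -0.28 and -0.86. Other steroid synthesis genes of this list went the other way, as *Cyp11a1* and *Hsd3b1* were called higher. *Hsd3b1*, also named after its values were seen, stood at 7.81 FPKM in the cKO library and 3.85 FPKM in the WT library, a log2 ratio of 1.00.

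Markers of granulosa cells at other stages differed between lists. Of 12 genes of cumulus cells and their expansion, 9 were in the table and 3 reached 1 FPKM, and none passed the rule. The glycolytic gene *Ldha* stood at 7.07 FPKM in the cKO library and 6.58 FPKM in the WT library, and *Pfkp* at 5.19 FPKM in the cKO library and 5.10 FPKM in the WT library. Of 6 genes of pregranulosa cells, 4 reached 1 FPKM. Of these 2 were higher and 0 lower, beside the 18.2% and 12.2% of all genes at 1 FPKM or more. *Rspo1*, an enhancer of WNT signalling, stood at 8.41 FPKM in the cKO library and was listed at 0 in the WT library. *Wnt4* stood at 4.69 FPKM in the cKO library and 0.579 FPKM in the WT library. *Rspo1* and *Wnt4* thus reached 1 FPKM in the cKO library alone. The homeobox gene *Emx2*, the most abundant of this list, stood at 9.12 FPKM in the cKO library and 15.1 FPKM in the WT library.

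**Figure D3:**
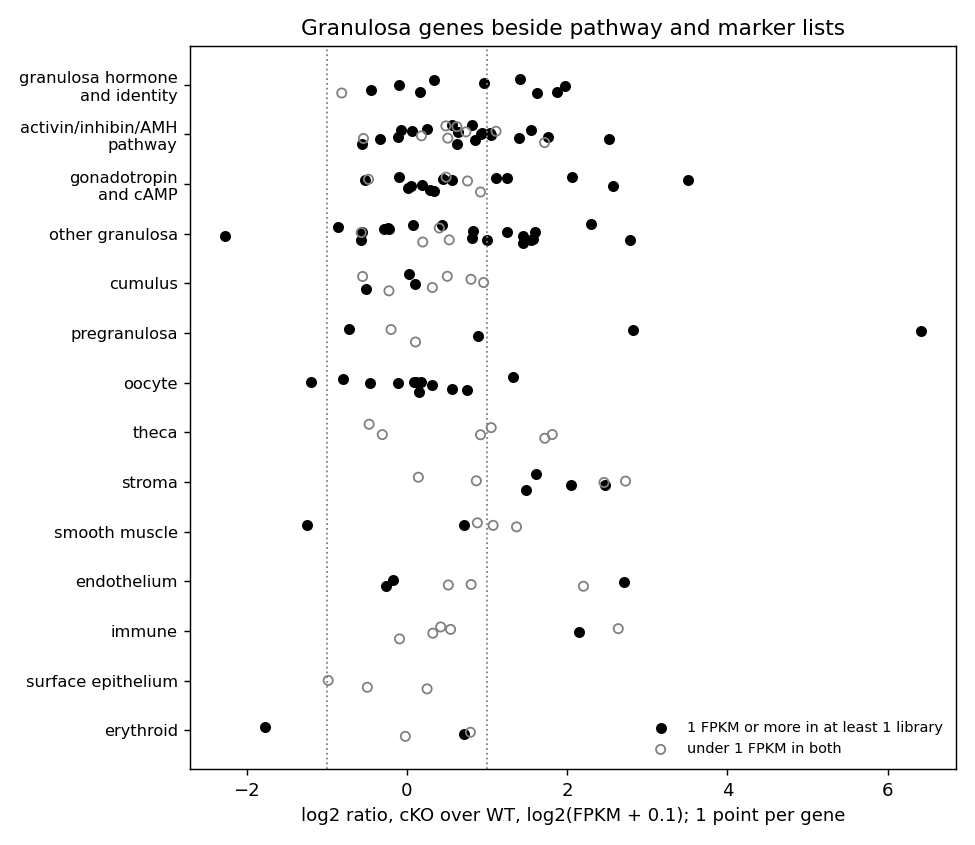
Log2 ratio of cKO over WT for each gene of 14 lists, with 1 point per gene, filled where 1 FPKM was reached and open below it, and dotted lines at log2 ratios of 1 and -1. The granulosa genes spread from -0.81 for *Amh* to 1.97 for *Gatm*, and the 8 stroma genes all lie to the right of 0.

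Among markers of other ovarian cells, those of stroma were low in both libraries and were higher in the cKO library, as *Inhba*, *Gatm*, *Gata6* and *Foxl2* were. All 8 stroma genes were above WT in the cKO library, with sums of 8.86 FPKM in the cKO library and 1.92 FPKM in the WT library. The 4 that reached 1 FPKM were all called higher, beside 18.2% of all genes at 1 FPKM or more. All 4 were under 1 FPKM in the WT library, so their place rests on the library in which they were higher. *Col1a2* stood at 2.42 FPKM in the cKO library and 0.353 FPKM in the WT library, *Col1a1* at 1.21 FPKM in the cKO library and 0.218 FPKM in the WT library, and *Dcn* at 2.10 FPKM in the cKO library and 0.689 FPKM in the WT library. *Mfap4* stood at 1.18 FPKM in the cKO library and 0.321 FPKM in the WT library. *Lum*, named after its values were seen, stood at 0.563 FPKM in the cKO library and was listed at 0 in the WT library. The part of these cells in the granulosa values was not tested.

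The other marker lists were less uniform. Theca genes summed to 2.95 FPKM in the cKO library and 1.23 FPKM in the WT library over 6 genes, 4 of them above WT, and none reached 1 FPKM. *Cyp17a1*, which defines theca cells, stood at 0.944 FPKM in the cKO library and 0.217 FPKM in the WT library. Immune genes summed to 2.59 FPKM in the cKO library and 0.848 FPKM in the WT library over 6 genes, 5 of them above WT. *Cd74* was called higher, at 1.38 FPKM in the cKO library and 0.234 FPKM in the WT library, and reached 1 FPKM in the cKO library alone. *Cd68* stood at 0.531 FPKM in the cKO library and 0.572 FPKM in the WT library. *Ptprc*, *Cd3e* and *C1qa*, named after their values were seen, were listed at 0 in the WT library. In the cKO library they stood at 0.034, 0.046 and 0.522 FPKM. Endothelial genes summed to 13.8 FPKM in the cKO library and 12.8 FPKM in the WT library, with 4 of 6 genes above WT. *Cldn5* was called higher, at 2.35 FPKM in the cKO library and 0.274 FPKM in the WT library. It reached 1 FPKM in the cKO library alone. *Pecam1*, the most abundant of this list, stood at 8.14 FPKM in the cKO library and 9.78 FPKM in the WT library.

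Blood, smooth muscle and surface epithelium markers had lower sums in the cKO library, each with members on both sides. Erythroid genes summed to 27.2 FPKM in the cKO library and 58.8 FPKM in the WT library, with *Hba-a1* at 14.99 FPKM in the cKO library and 51.5 FPKM in the WT library, and 2 of the 4 genes were above WT. Reads of *Hba-a1* and its near-identical copy *Hba-a2* are of uncertain assignment. Smooth muscle genes summed to 20.6 FPKM in the cKO library and 26.6 FPKM in the WT library. Of these, *Myh11* stood at 8.09 FPKM in the cKO library and 19.4 FPKM in the WT library. The other 4 of the 5 genes were above WT, among them *Cnn1* at 11.1 FPKM in the cKO library and 6.72 FPKM in the WT library. *Des*, named after its values were seen, stood at 0.158 FPKM in the cKO library and was listed at 0 in the WT library. The 3 surface epithelium genes in the table stayed under 1 FPKM in both libraries, with sums of 0.817 FPKM in the cKO library and 1.19 FPKM in the WT library, and 1 of them was above WT.

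**Figure D4:**
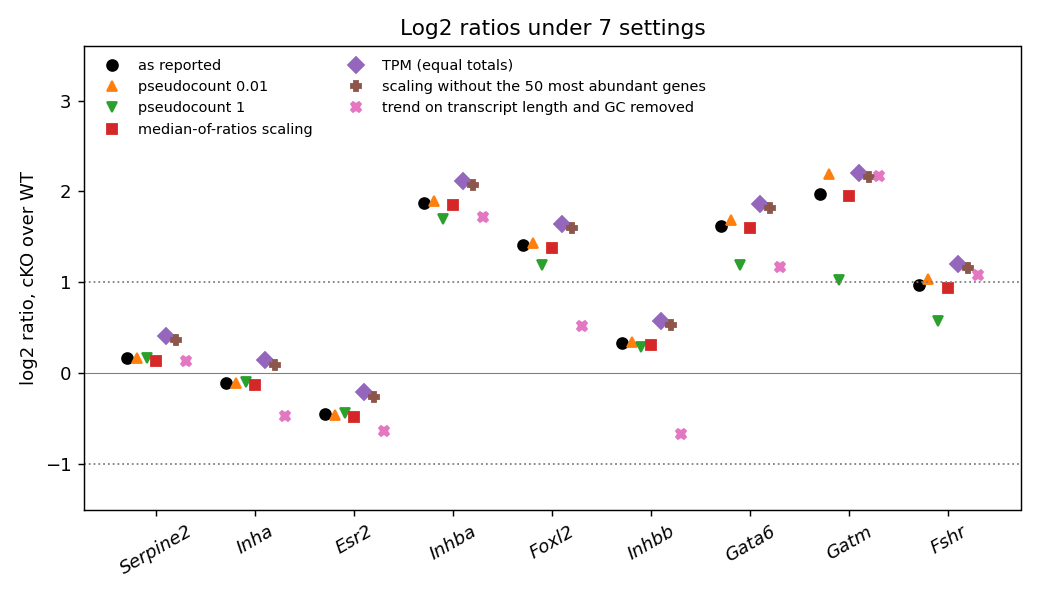
Log2 ratio of cKO over WT for the 9 granulosa genes that reached 1 FPKM, with 1 symbol per setting: as reported, 2 other pseudocounts, 3 other scalings, and the trend on transcript length and GC content removed. *Inhba*, *Gata6* and *Gatm* lie above 1 in all of these settings, *Foxl2* drops to 0.52 in the last of them, and *Inhbb* moves below 0 there.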

How the data were processed

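Libraries were made from 1 ug of total RNA with a TruSeq RNA kit, per the labels' protocols. The submitters' processing notes name Bowtie 0.12.2 and build mm10. The counting method, annotation and test are not given in the sources used here. Per the file headers, the 3 deposited tables give FPKM per gene and library, the fold of knockout over control, a p-value and an FDR. The KO column is read as the cKO library; NC, which the labels do not explain, is read as WT because it is the other column. The authors deposited 0 as 1e-05, read here as 0 FPKM. This applied to 1055 genes in the cKO and 1210 in the WT library. Dividing the FPKM gave the deposited fold within 1% for 100% of genes.

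Ratios, calls by the rule of size, list medians and sums were computed with Python 3.11.15, numpy 2.4.6 and pandas 2.3.3, and the arithmetic of the rule was checked on simulated FPKM with known folds, which says nothing of replicate error. Transcript length and GC content came from GENCODE M21 and covered all 10 members. The trend was a cubic polynomial of each, fitted over genes at 1 FPKM or more. Alternatives were other pseudocounts, floors and scalings, and a 3-fold rule. The 10 genes and the lists were chosen with earlier results of these data known. Beside the members, the naming rule gave for each list up to 6 genes past the rule of size with the largest ratios and the 2 most abundant. Of 142 other listed genes, 130 had a row, and the rest are not analysed here. RefSeq windows were matched by symbol for 8 members.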

Additional observations from a re-analysis of the deposited data

How the results depend on the processing

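No paired analysis was possible because there was 1 library per genotype, and no library could be left out. The members called higher numbered between 3 and 5 under 8 alternatives, and 2 with a floor of 5 FPKM, which leaves 6 members and a median log2 ratio of 0.25. No member was called lower under any alternative. *Inhba* kept a log2 ratio between 1.69 and 2.11 under every alternative, and *Foxl2* lost its call with the length and GC trend removed (the cause was not tested) and under the 3-fold rule. *Fshr* gained a call under 4 alternatives. *Inha* turned from -0.10 to 0.14 with equal totals and 0.10 with scaling without the 50 most abundant genes. With the length and GC trend removed it was -0.47.

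Over all genes, 2149 were higher and 1442 lower. The counts higher were 3392 with no floor, 1261 with a floor of 5 FPKM and 1019 with the 3-fold rule; those lower were 953 with a floor of 5 FPKM and 530 with the 3-fold rule. Of the other listed genes, 28 were higher and 4 lower; 14 were higher with a floor of 5 FPKM, and 15 higher and 2 lower with the 3-fold rule. The higher share of calls was 59.8%, against 74.7% with equal totals and 72.1% when the 50 most abundant genes were left out of the scaling; all genes had a median log2 ratio of 0.12 as reported, 0.31 and 0.28 in these settings.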
